A study of Mus musculus with 95 samples.

Results

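Apoe, Clu, Apod, Abca1, Abcg1, Lpl, Lcat and Lrp1 are 8 genes of lipoprotein assembly, cholesterol efflux and lipoprotein uptake. They were selected by symbol, 8 of the 55471 features of a gene count table from mouse nucleus accumbens, and each symbol matched 1 Ensembl gene. All 8 passed the low-count filter in every comparison, so no member was left untested. In the brain, astrocytes secrete lipid-poor particles built around apolipoprotein E and clusterin. Transporters of the ABC family load cholesterol and phospholipid onto these particles, enzymes in the extracellular space remodel them, and neurons and glia take them up through endocytic lipoprotein receptors. The liver X receptors, nuclear receptors that sense oxidized cholesterol, are the best known transcriptional regulators of Apoe, Abca1 and Abcg1.

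The mice carried the transgene Tg(Aldh1l1-EGFP/Rpl10a), in which regulatory sequence of the astrocyte gene Aldh1l1 drives a ribosomal protein fused to EGFP, on a background labelled B6;FVB. All groups carried it, and no mouse without it was included. Translating ribosome affinity purification (TRAP) of tissue punches gave the IP library of a mouse, which holds RNA bound to tagged ribosomes, and an aliquot from before the purification gave the input library, which holds RNA of the whole punch. Dependent mice (18 IP and 18 input libraries) went through 5 rounds of CIE in the CIE-2BC protocol, and were compared with non-dependent mice (13 IP and 15 input) and naive mice (15 IP and 16 input). In this field CIE-2BC names cycles of chronic intermittent ethanol exposure that alternate with voluntary drinking from a choice of bottles. Designs of this kind use mice that drink without the exposure as non-dependent controls and ethanol-free mice as naive controls, whereas the labels here give only the group names. No ages are given in the sources used. Females and males were present in every group. The labels divide the mice into 6 batches. Batches C and G held 1 dependent female each and were left out of the treatment comparisons, apart from the alternative fits without a batch term. Batch I held no naive mouse, and batch L held no non-dependent mouse.

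Total counts ran from 14314236 to 27146790 per IP library and from 12803108 to 23948193 per input library, and every library held at least 57 counts of each member. The 12 astrocyte markers summed to between 22720 and 30560 CPM (counts scaled to a common library total of 1e6) in the fitted IP libraries and to between 2837 and 4293 CPM in the fitted input libraries, and no group had a marker at 0 in all its libraries. The IP was not free of other cells: 12 oligodendrocyte markers summed to between 1167 and 2846 CPM and 12 neuron markers to between 1374 and 2845 CPM there. In 1 non-dependent male of batch K, mouse K15, the IP and input libraries deviated from their groups in opposite ways (correlation across 9507 genes of -0.33, against a median of 0.645 over the 46 mice with both libraries). Its labels were kept, and values without it are given beside the calls. In bulk RNA, fewer cells of a type and less RNA per cell cannot be told apart.

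The genes lie on 7 chromosomes of GRCm38, annotated in GENCODE M21. Apoe occupies chr7:19696109-19699188 on the minus strand, Clu chr14:65968483-65981547 on the plus strand and Apod chr16:31296192-31314808 on the minus strand. The transporter gene Abca1 spans chr4:53030787-53159895 on the minus strand, and Abcg1 spans chr17:31057675-31117988 on the plus strand. The enzyme genes share chromosome 8, with Lpl at chr8:68880491-68907448 on the plus strand and Lcat at chr8:105939551-105943382 on the minus strand. The receptor gene Lrp1 covers chr10:127538161-127621148 on the minus strand. Lcat overlaps the antisense gene Gm16156, Lrp1 the antisense gene Gm16217 and Abcg1 the short RNA gene Gm25447. The strand setting of the counting is not given in the sources used here. These partners themselves had a median of 0 CPM and at most 0.863 CPM in any fitted library. Those values cannot show whether reads in the overlaps were left out of both genes, so any loss from the members is unknown.

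RefSeq promoter entries (GRCm38.p6) matched 5 of the 8 symbols, namely Apoe, Apod, Abca1, Lcat and Lrp1. The 250 bases before the start are shown for 3 of them because they represent opposite outcomes of the purification described next: Abca1 and Apoe were enriched with astrocyte ribosomes and Apod was depleted. Each runs 5′ to 3′ on the gene's strand, and capitals mark matches on either strand to 4 motifs: the GC box GGGCGG, the E-box CACGTG, the TATA box TATAAA and the spaced repeat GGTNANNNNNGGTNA, a loose form of the paired half-sites to which liver X receptors bind with their partner. The Abca1 window is chr4:53159896-53160145, the Apoe window chr7:19699189-19699438 and the Apod window chr16:31314809-31315058, all on the minus strand.
Abca1: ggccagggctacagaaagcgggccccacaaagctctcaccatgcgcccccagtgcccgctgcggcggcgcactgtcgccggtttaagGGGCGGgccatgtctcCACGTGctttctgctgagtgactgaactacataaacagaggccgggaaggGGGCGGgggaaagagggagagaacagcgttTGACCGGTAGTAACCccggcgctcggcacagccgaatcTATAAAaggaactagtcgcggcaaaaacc
Apoe: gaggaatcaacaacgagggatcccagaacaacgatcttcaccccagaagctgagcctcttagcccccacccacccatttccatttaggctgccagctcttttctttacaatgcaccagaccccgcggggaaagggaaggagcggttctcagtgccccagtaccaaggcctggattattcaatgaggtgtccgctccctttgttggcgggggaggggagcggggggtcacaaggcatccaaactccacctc
Apod: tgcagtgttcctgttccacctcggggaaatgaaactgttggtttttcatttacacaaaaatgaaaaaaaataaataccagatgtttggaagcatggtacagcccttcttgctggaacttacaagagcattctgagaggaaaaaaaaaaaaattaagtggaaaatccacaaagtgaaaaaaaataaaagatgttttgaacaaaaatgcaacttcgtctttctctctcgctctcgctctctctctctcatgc
The Abca1 window held matches to all 4 motifs. The spaced repeat began 67 bases before the start and the TATA box 29 bases before it, an E-box began at 147, and GC boxes began at 163 and 97. Among 32851 promoter windows of the same length in that table, 0.621% held the spaced repeat, 32.7% a GC box, 6.02% an E-box and 12.4% a TATA box. The Apoe and Apod windows held none of these letters. RefSeq lists 2 more Apoe starts, of which the one at 19698621 had overlapping TATA box matches beginning 100 and 96 bases before it. The Lrp1 window held 1 GC box, beginning 99 bases before the start. A match is only a match of letters.

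The first comparison asked which of these transcripts were richer on tagged ribosomes than in the whole punch. Relative to input, 5 members were higher in IP: Lcat, Apoe, Clu, Abca1 and Lrp1. The other 3, Apod, Lpl and Abcg1, were lower. Every member kept its direction in all 46 mice, as the plot of IP over input in each mouse shows. How many of all genes keep a single direction in every mouse was not counted. Of all 17191 genes tested in the same fit, 83.9% were called (14431 genes, 6623 higher and 7808 lower, edgeR's quasi-likelihood test, adjusted p at or under 0.05), so a call by itself was common and the sizes carry the information. The median log2 fold change was 1.69 over the 8 members and -0.08 over all genes tested. Fold changes here come from TMM scaling, which lifts all genes by 0.157 on the log2 scale relative to plain CPM ratios.

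**Figure D1:**
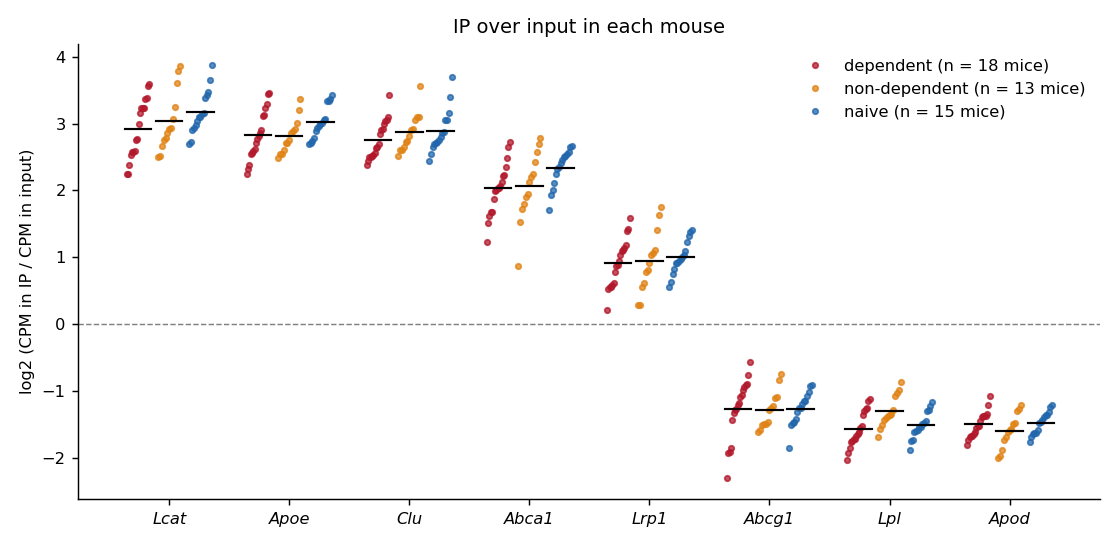
Log2 ratio of CPM in IP to CPM in input for each mouse (points), with the mean of each treatment as a bar: 18 dependent, 13 non-dependent and 15 naive mice. Lcat, Apoe, Clu, Abca1 and Lrp1 lie above 0 in every mouse, and Abcg1, Lpl and Apod lie below 0 in every mouse.

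Among the apolipoproteins, Apoe and Clu went one way and Apod the other. The mean level of Apoe, the main carrier protein of brain lipoproteins, was 26050 ± 4924 CPM in IP, against 3510 ± 613 CPM in input (SD, n = 46 mice). Its ratio in single mice ran from 2.25 to 3.46 on the log2 scale, and the fitted log2 fold change was 3.05 ± 0.04 (SE, adjusted p = 1.85e-56). Clu encodes clusterin, also called apolipoprotein J, a secreted chaperone that associates with brain lipoproteins. It averaged 4788 ± 1099 CPM in IP, against 695 ± 235 CPM in input, with a log2 fold change of 2.99 ± 0.04 (adjusted p = 4.31e-59) and single-mouse ratios from 2.38 to 3.69. Apod encodes apolipoprotein D, a small lipid carrier of the lipocalin family that in mouse brain is best known from oligodendrocytes and perivascular fibroblasts. Apod averaged 132 ± 33.8 CPM in IP, against 375 ± 87.0 CPM in input, a log2 fold change of -1.36 ± 0.04 (adjusted p = 1.1e-40), and single mice ran from -2.00 to -1.08. Apoe and Clu were enriched to about the same degree, and Apod lay on the other side of 0 without overlap.

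The efflux transporters also split. Abca1 encodes the pump that passes cholesterol and phospholipid to lipid-poor apolipoproteins, the first step of particle formation. Abca1 averaged 82.6 ± 17 CPM in IP, against 18.9 ± 4.45 CPM in input, and its log2 fold change was 2.28 ± 0.05 (adjusted p = 1.27e-44). Abcg1 encodes a pump that adds cholesterol to particles already formed. Abcg1 averaged 17.9 ± 4.5 CPM in IP, against 42.6 ± 7.66 CPM in input, a log2 fold change of -1.10 ± 0.05 (adjusted p = 2.79e-27). The spread over mice was wide for both: Abca1 ran from 0.87 in non-dependent mouse I03 to 2.78, and Abcg1 from -2.30 in dependent mouse K18 to -0.56, but neither range reached 0.

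The enzymes fell on opposite sides of 0. Lcat encodes the acyltransferase that esterifies cholesterol on particles and lets them mature. Lcat averaged 76.5 ± 20.6 CPM in IP, against 9.56 ± 3.17 CPM in input, and at 3.16 ± 0.05 on the log2 scale (adjusted p = 2.04e-52) it had the highest fold change of the 8. Lpl encodes lipoprotein lipase, which hydrolyses triglycerides of lipoproteins at the cell surface. Lpl averaged 40.5 ± 12.1 CPM in IP, against 111 ± 23.4 CPM in input, a log2 fold change of -1.31 ± 0.04 (adjusted p = 1.46e-38). Lrp1, a large endocytic receptor for Apoe-containing particles that is widely expressed in neurons and glia, averaged 189 ± 29.4 CPM in IP, against 101 ± 32 CPM in input. Its log2 fold change of 1.10 ± 0.04 (adjusted p = 9.76e-34) was the smallest of the 5 positive ones, and single mice ran from 0.21 to 1.75.

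Levels can be set against each other only per length, here as CPM per kilobase of exon. The length was the union of all annotated exons of a gene, for instance 10478 bases for Lpl and 10363 for Abca1. It can exceed the length of the transcript that was present, and the order of the members depends on it. Other lengths were not tried. In IP, Apoe stood at 12140 ± 2343 CPM per kilobase and Clu at 1411 ± 315 (SD, n = 44 libraries), and neither range overlapped that of the next gene down. Lcat at 57.8 ± 15.2 and Apod at 50.9 ± 13.3 were not separable, since Lcat was the higher in 27 of 44 libraries. Lrp1 (10.7 ± 1.67), Abca1 (8.01 ± 1.66), Lpl (3.9 ± 1.17) and Abcg1 (2.43 ± 0.618) followed, with overlapping ranges between neighbours and the same order in 40, 41 and 41 of 44 libraries for the 3 neighbouring pairs. Apoe alone took 2.6% of all counts of an IP library on average, and 0.356% of an input library.

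In input the order below Clu was different. Apoe averaged 1664 ± 296 CPM per kilobase, Clu 207 ± 67.7 and Apod 144 ± 34.1 (n = 47 libraries), and the ranges of Clu and Apod overlapped, Clu being higher in 31 libraries. Lpl stood at 10.6 ± 2.16, Lcat at 7.36 ± 2.35, Lrp1 at 5.88 ± 1.79, Abcg1 at 5.80 ± 1.07 and Abca1 at 1.83 ± 0.423. Lcat and Lrp1 (33 of 47 libraries in that order) and Lrp1 and Abcg1 (26 of 47) did not separate. Abca1 was the lowest member in input and Abcg1 the lowest in IP.

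Other genes of the pathway were counted from 6 lists, again for IP against input. In that fit 83.9% of all genes tested were called (6623 higher and 7808 lower), so calls within a list were common too. The list of liver X receptors, their partners and targets also held the receptors Ppara, Ppard and Pparg. Of its 11 tested genes, 8 were higher in IP and 2 lower. Among the higher were Srebf1, a regulator of lipid synthesis, at 2.71 ± 0.04, and the liver X receptors Nr1h3 at 1.94 ± 0.08 and Nr1h2 at 0.66 ± 0.04. The lower genes of this list were the receptor partners Rxrg (-1.22 ± 0.05) and Rxrb (-0.41 ± 0.05). Of 9 tested genes of intracellular cholesterol transport, storage and oxidation, 5 were higher and 3 lower. The lysosomal exporters Npc2 (1.91 ± 0.04) and Npc1 (1.71 ± 0.04) and the esterifying enzyme Soat1 (2.14 ± 0.05) were higher, and Cyp46a1, the neuronal enzyme that makes 24-hydroxycholesterol, was lower (-0.92 ± 0.04). Of 7 other apolipoproteins, 5 were higher, led by Apoc1 at 2.59 ± 0.07 and Apoc3 at 2.59 ± 0.10, and 2 were lower. Of 10 other ABC transporters, 5 were higher and 5 lower, with Abca8a at 1.73 ± 0.11. Of 11 other lipoprotein receptors and chaperones, 4 were higher and 6 lower, with Lrp4 at 2.99 ± 0.10 and Scarb1 at -1.12 ± 0.06. Of 6 lipases and lipase factors, 4 were higher and 2 lower, with Angptl4, a secreted inhibitor of lipoprotein lipase, at 2.71 ± 0.08. List medians ran from -0.12 for the receptors to 0.98 for intracellular cholesterol genes, beside -0.08 over all genes tested.

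The treatment comparisons asked how dependent mice differed from non-dependent and naive mice, and non-dependent from naive mice, in each fraction. They were fitted in batches I to L (16 dependent, 13 non-dependent and 15 naive IP libraries, and 16, 15 and 16 input libraries) with 1 mean for every combination of treatment and sex, and a batch term. In IP, Lcat was lower in dependent than in naive mice, Lpl was lower and Apod higher in dependent than in non-dependent mice, and no member was called between non-dependent and naive mice. In input no member was called in any comparison. The levels of 4 members in each IP library are plotted with the batches marked.

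**Figure D2:**
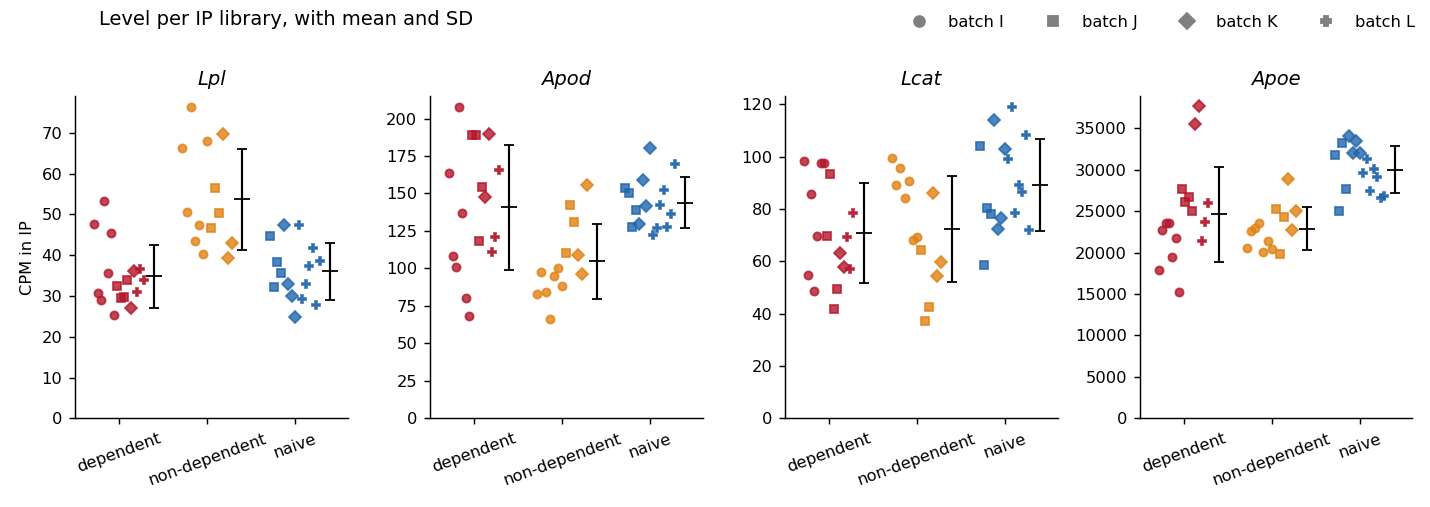
CPM of Lpl, Apod, Lcat and Apoe in each fitted IP library (16 dependent, 13 non-dependent and 15 naive), with batch as the symbol and the mean and SD of each group as a bar. Lpl was highest in non-dependent mice (39.4 to 76.4 CPM) and Apod lowest there (66.5 to 156 CPM), with overlap, and the dependent Apoe libraries of batch K (35490 and 37730 CPM) lie above all others.

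Lpl had the lowest adjusted p of the members in any treatment comparison. Its level in IP ran from 25.4 to 53.2 CPM in dependent mice (median 33.1, n = 16), from 39.4 to 76.4 CPM in non-dependent mice (median 50.2, n = 13) and from 25 to 47.3 CPM in naive mice (median 35.6, n = 15). Non-dependent libraries were the high ones, and they overlapped those of dependent mice in 3 dependent libraries of batch I. Between dependent and non-dependent mice the log2 fold change was -0.55 ± 0.11 (adjusted p = 0.00275, edgeR's quasi-likelihood test). In that comparison 1.54% of all 19979 genes tested were called (308 genes), and of the 8 members 2 were, Lpl and Apod. Within batches the difference in mean log2 CPM was -0.57 in batch I (7 against 7 libraries), -0.70 in batch J (4 against 3) and -0.65 in batch K (2 against 3), and in batches J and K the groups did not overlap. In the same direction, females averaged 37.6 ± 9.56 CPM in dependent and 58.5 ± 13.6 CPM in non-dependent mice (SD, n = 8 each), and males 32 ± 4.33 CPM (n = 8) and 46.1 ± 4.70 CPM (n = 5). Within-batch differences, here and below, have no sex term. Both dependent mice of batch K were male, while its other groups held females and males, so sex and treatment are mixed there. How often other genes do not overlap at such library numbers was not counted. The call was lost without batch I (-0.63, adjusted p = 0.0569) and without batch J (-0.49, adjusted p = 0.0879), and in batches J and K alone (-0.68, adjusted p = 0.208). Without mouse K15 the Lpl difference was -0.58 (adjusted p = 0.00265). Between non-dependent and naive mice Lpl had a log2 fold change of 0.40 ± 0.13 that did not pass (adjusted p = 0.167), though it did without the batch term (0.46, adjusted p = 0.0285) and without a count filter (0.40, adjusted p = 0.0351). Between dependent and naive mice the log2 fold change was -0.15 ± 0.12 (adjusted p = 0.583).

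Lpl was depleted in IP, so markers of neurons, which also express it, are given beside its difference. The 12 neuron markers summed to 1374 to 2845 CPM in IP of dependent mice (median 1934), 1714 to 2623 CPM in non-dependent mice (median 2086) and 1469 to 2106 CPM in naive mice (median 1870), and no group had a marker at 0 in all its libraries. The 12 markers of medium spiny neurons, the main neurons of the nucleus accumbens, summed to 1598 to 4657 CPM in IP of dependent mice (median 3185), 2928 to 4686 CPM in non-dependent mice (median 3539) and 2667 to 4803 CPM in naive mice (median 3854), again with no marker at 0 in a whole group. Between dependent and non-dependent mice 1 of these 12 was called, lower, and their median log2 fold change was -0.25, against -0.09 for the 12 neuron markers and 0.002 over all genes tested. With the mean levels of the neuron and oligodendrocyte marker lists as covariates, the Lpl difference was -0.57 (adjusted p = 0.00274). With the medium spiny neuron list as a further covariate it was -0.37 and the call was lost (adjusted p = 0.0628). In input, where the gene was higher, Lpl ran from 61.3 to 124 CPM in dependent mice (median 109), 83.2 to 166 CPM in non-dependent mice (median 128) and 68.0 to 137 CPM in naive mice (median 107). Its log2 fold change there was -0.29 ± 0.10 between dependent and non-dependent mice, which did not pass (adjusted p = 0.326).

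Apod was the other member called between dependent and non-dependent mice, in the opposite direction. It ran from 68.3 to 208 CPM in IP of dependent mice (median 142), 66.5 to 156 CPM in non-dependent mice (median 97.9) and 123 to 180 CPM in naive mice (median 142). Dependent and non-dependent mice overlapped widely, with the lowest dependent library (mouse I15) and the lowest non-dependent one at about the same level. The log2 fold change between dependent and non-dependent mice was 0.48 ± 0.11 (adjusted p = 0.0131). Within batches it was 0.41 in I, 0.33 in J and 0.50 in K, and the groups overlapped in each. The Apod call was lost without batch I (0.43, adjusted p = 0.186), without batch K (0.42, adjusted p = 0.117), in batches J and K alone (0.45, adjusted p = 0.311) and without the batch term (0.47, adjusted p = 0.152). Without mouse K15 it was 0.44 (adjusted p = 0.0408). Non-dependent against naive mice gave -0.41 ± 0.13, not called (adjusted p = 0.182) except without a count filter (adjusted p = 0.00351), and dependent against naive mice 0.07 ± 0.12 (adjusted p = 0.846). In input Apod averaged 393 ± 107 CPM in dependent mice, 317 ± 69.5 CPM in non-dependent mice and 397 ± 59.2 CPM in naive mice, and the log2 fold change between dependent and non-dependent mice was 0.33 ± 0.10 (adjusted p = 0.177).

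Markers of cells in which Apod is known were set beside that difference. The 12 oligodendrocyte markers summed to 1167 to 2556 CPM in IP of dependent mice (median 1829), 1267 to 2846 CPM in non-dependent mice (median 2064) and 1361 to 2527 CPM in naive mice (median 1790). The 8 fibroblast and meningeal markers summed to 26.4 to 49.9 CPM in dependent mice, 21.8 to 38.9 CPM in non-dependent mice and 22.4 to 37.1 CPM in naive mice. Pdgfra, which is in this sum, is also a marker of oligodendrocyte precursors. The fitted median log2 fold change of the 11 oligodendrocyte markers tested was -0.12 between dependent and non-dependent mice and -0.06 between non-dependent and naive mice. With the neuron and oligodendrocyte marker means as covariates the Apod difference was 0.53 and was called, and with the medium spiny neuron list added it was 0.58 (adjusted p = 0.00955). The part of fibroblast RNA in the Apod difference was not tested.

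Lcat was the member called between dependent and naive mice. It ran from 41.7 to 98.5 CPM in IP of dependent mice (median 69.5), 37.2 to 99.5 CPM in non-dependent mice (median 69.3) and 58.8 to 119 CPM in naive mice (median 86.4). The groups overlapped, with naive libraries the highest. The log2 fold change between dependent and naive mice was -0.49 ± 0.14 (adjusted p = 0.0246). In that comparison 4.67% of the 19979 genes tested were called (933 genes), and 1 called member of 8 is too few to set apart from that share. Within batches the Lcat difference was -0.38 in J (4 against 4 libraries), -0.57 in K (2 against 4) and -0.44 in L (3 against 7). Non-dependent against naive mice gave an effect of like size, -0.56 ± 0.16, which was not called (adjusted p = 0.0890). It was called by DESeq2 (adjusted p = 0.0195) and with the neuron and oligodendrocyte covariates (-0.71, adjusted p = 0.0265). It was also called without a count filter (-0.56 ± 0.10, adjusted p = 2.05e-05), a fit that called 481 of 35858 genes, against 88 of 19979 with the filter. Dependent against non-dependent mice gave 0.06 ± 0.13 (adjusted p = 0.924). The Lcat call was lost when any single batch was left out, with adjusted p-values from 0.0639 without batch I to 0.149 without batch K, while the log2 fold change stayed between -0.43 and -0.54, and in batches J and K alone (-0.37, adjusted p = 0.396). Without mouse K15 it was -0.48 (adjusted p = 0.0312). In input, Lcat averaged 9.87 ± 3.63 CPM in dependent mice, 9.47 ± 3.23 CPM in non-dependent mice and 10.3 ± 2.68 CPM in naive mice, and the log2 fold change between dependent and naive mice was -0.34 ± 0.15 (adjusted p = 0.244).

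Apoe, the most abundant member, lay below naive mice in both other groups without passing the test. It ran from 15280 to 37730 CPM in IP of dependent mice (median 23660), 19810 to 28880 CPM in non-dependent mice (median 22700) and 25060 to 34010 CPM in naive mice (median 30080). The dependent group had the widest range: its lowest library was mouse I15 and its 2 highest were both of batch K. The log2 fold change was -0.22 ± 0.07 between dependent and naive mice (adjusted p = 0.0838) and -0.34 ± 0.09 between non-dependent and naive mice (adjusted p = 0.0638). Between non-dependent and naive mice 0.44% of the 19979 genes tested were called (88 genes) and none of the 8 members. Within batches, dependent minus naive was -0.15 in J, 0.16 in K and -0.28 in L, so its direction turned in batch K, whereas non-dependent minus naive was -0.35 in J and -0.37 in K. These values have no sex term, and both dependent mice of batch K were male. Without batch K the Apoe difference between dependent and naive mice was -0.29 and was called (adjusted p = 0.0342), as it was with no count filter (-0.22, adjusted p = 0.0327). Between non-dependent and naive mice, limma voom (-0.34, adjusted p = 0.0349), DESeq2 (-0.34, adjusted p = 0.0108) and edgeR without the batch I libraries (-0.48, adjusted p = 0.0177) called Apoe, as did edgeR without a count filter (adjusted p = 0.00241) or without the batch term (adjusted p = 0.0385).

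Abcg1 and Abca1 gave values below naive mice in IP that did not pass. Abcg1 ran from 8.55 to 28.4 CPM in dependent mice (median 15.3), 11.9 to 32 CPM in non-dependent mice (median 15.8) and 16 to 24.8 CPM in naive mice (median 19.8). Its log2 fold change between dependent and naive mice was -0.38 ± 0.13 (adjusted p = 0.0771). Within batches the difference was -0.68 in J and -0.62 in K, without overlap in either, and -0.17 in L. The share of all genes without overlap in these batches was not counted. In batches J and K alone, Abcg1 was called between dependent and naive mice at -0.79 (adjusted p = 0.00358), and it was called without batch I at -0.49 (adjusted p = 0.00420). Over all 4 batches limma voom called it at -0.40 (adjusted p = 0.0489). With the neuron, oligodendrocyte and medium spiny neuron lists as covariates it was -0.13 (adjusted p = 0.738). In input its log2 fold change was -0.25 ± 0.08 (adjusted p = 0.0850). Abca1 averaged 80.5 ± 16.9 CPM in dependent mice, 75.1 ± 14.7 CPM in non-dependent mice and 92.5 ± 16.1 CPM in naive mice in IP, and its log2 fold change was -0.18 ± 0.12 between dependent and naive mice (adjusted p = 0.499) and -0.32 ± 0.13 between non-dependent and naive mice (adjusted p = 0.327). Within batches dependent minus naive was -0.25 in J, 0.28 in K, where both dependent mice were male, and -0.47 in L, so the direction turned in batch K for Abca1 too.

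Clu and Lrp1 had fitted differences near 0. Clu averaged 5079 ± 1087 CPM in dependent mice, 5122 ± 1171 CPM in non-dependent mice and 4368 ± 888 CPM in naive mice in IP, and its fitted log2 fold changes lay between 0.01 and 0.07. The fitted values include a batch term and the group means do not, and batch I, which held no naive mouse, had the highest Clu libraries of the other groups. Lrp1 averaged 191 ± 28.9 CPM in dependent, 183 ± 21.6 CPM in non-dependent and 194 ± 36.4 CPM in naive mice. Its 3 fitted log2 fold changes in IP were 0.02, 0.01 and 0.01, with approximate 95% intervals that reached from -0.13 to 0.14 at most. Their standard errors were smaller than those of any other member.

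**Figure D3:**
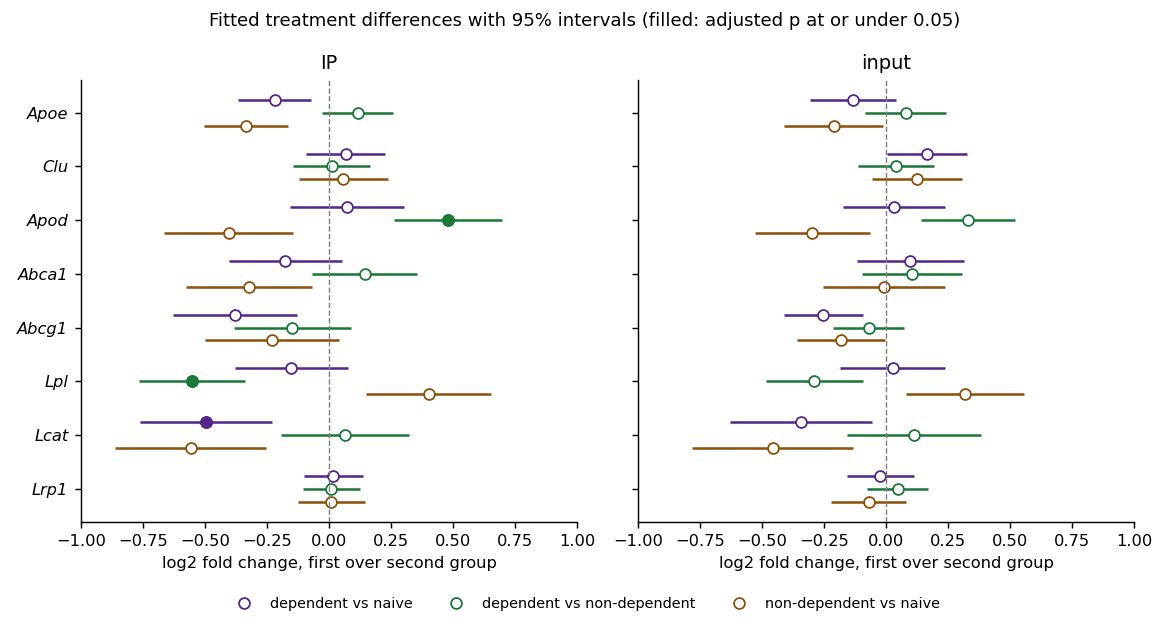
Fitted log2 fold change of each member with its approximate 95% interval in 3 treatment comparisons, in IP (left) and in input (right). Filled points mark an adjusted p at or under 0.05: Lcat (dependent vs naive), Lpl and Apod (dependent vs non-dependent), all in IP.

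In input the members' fitted differences ran from -0.46 (Lcat, non-dependent against naive mice) to 0.33 (Apod, dependent against non-dependent mice), and none passed. The shares of the 19691 genes called there were 2.38% for dependent against naive mice (469 genes), 0.355% for dependent against non-dependent mice (70 genes) and 0.122% for non-dependent against naive mice (24 genes). A call lost in input is no evidence that IP and input differ, so that difference was tested in the mice with both libraries. No member was called. The background was 0.356% of 21659 genes for dependent against naive mice (77 genes), 0.0923% for dependent against non-dependent mice (20 genes) and 0% for non-dependent against naive mice, where no gene was called and 1199 had an unadjusted p under 0.05. The largest member shifts of IP over input were those of Abca1, at -0.31 ± 0.13 for dependent against naive mice (adjusted p = 0.511) and -0.36 ± 0.15 for non-dependent against naive mice (adjusted p = 0.826). The Lpl shift for dependent against non-dependent mice was -0.21 ± 0.09 (adjusted p = 0.472).

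Sex was tested as a difference between the female and the male treatment difference. No gene was called in any of the 6 such comparisons by edgeR (0% of 19979 genes in IP and 0% of 19691 in input) or by limma voom, with 540 to 970 genes at an unadjusted p under 0.05, and no member was called. The largest female minus male value of a member in IP was that of Abcg1 between non-dependent and naive mice, -0.31 ± 0.24 (adjusted p = 1), and in input that of Lcat in the same comparison, -0.57 ± 0.27 (adjusted p = 0.958).

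**Figure D4:**
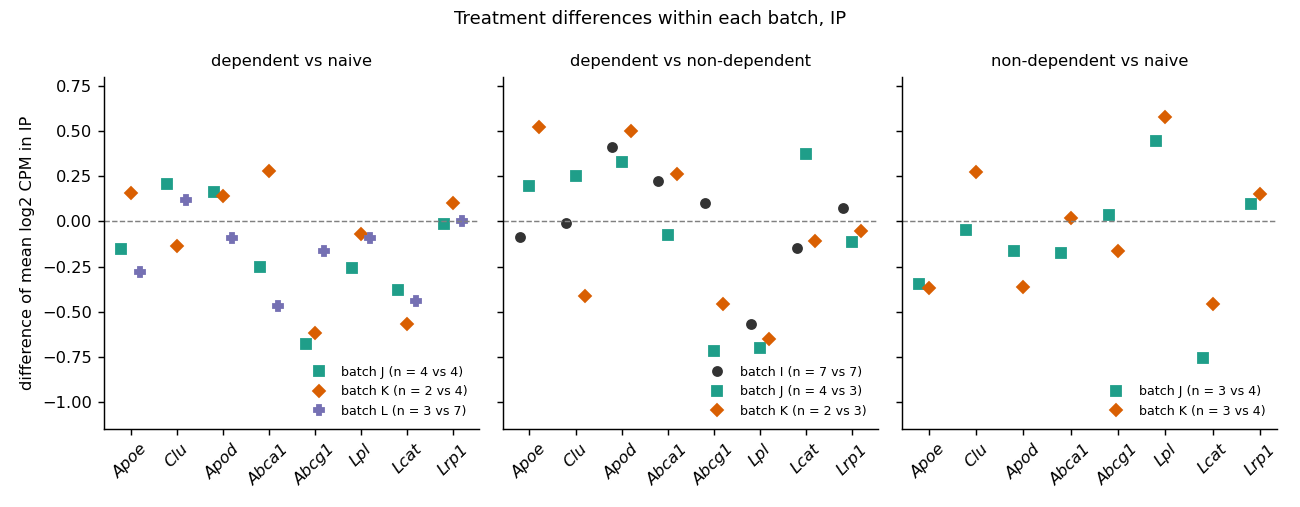
Difference in mean log2 CPM of IP libraries within each batch that holds both groups, for all 8 members, with library numbers in the legend. The differences have no sex term, and both dependent mice of batch K were male. Lpl is negative in all 3 batches for dependent against non-dependent mice (-0.57, -0.70 and -0.65), Lcat is negative in all 3 for dependent against naive mice (-0.38, -0.57 and -0.44), and Apoe changes sign in batch K (0.16).

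Microglia markers stood apart in some dependent mice. The 12 microglia markers summed to 217 to 830 CPM in IP of dependent mice (median 301), 234 to 318 CPM in non-dependent mice (median 271) and 225 to 305 CPM in naive mice (median 273). The 4 highest sums were all in dependent mice, 3 of batch I (I02, I05 and I11) and 1 of batch J (J05). Without those 4 mice the Lpl difference between dependent and non-dependent mice was -0.57 (adjusted p = 0.0144) and the Lcat difference between dependent and naive mice was -0.51 (adjusted p = 0.0232). The Apod difference between dependent and non-dependent mice was then 0.39 and was no longer called (adjusted p = 0.127). Apoe between non-dependent and naive mice was then called, at -0.36 (adjusted p = 0.0499).

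Of the 58 tested genes of the 6 pathway lists, 2 were called in IP between dependent and naive mice (1 lower, 1 higher), beside 4.67% of all genes. Abca8a, a transporter related to Abca1, was lower at -0.97 ± 0.20 (adjusted p = 0.00156), with 11.6 ± 6.67 CPM in dependent, 14.7 ± 4.74 CPM in non-dependent and 26.9 ± 7.66 CPM in naive mice. Tspo, a mitochondrial cholesterol-binding protein also found in microglia, was higher at 0.60 ± 0.14 (adjusted p = 0.00699), with 44.5 ± 16.9 CPM in dependent, 29.7 ± 7.77 CPM in non-dependent and 28.6 ± 5.40 CPM in naive mice. Between dependent and non-dependent mice 3 of the 58 were called (2 higher, 1 lower), beside 1.54% of all genes, among them Tspo at 0.65 ± 0.13 (adjusted p = 0.00407) and Cyp46a1 at -0.39 ± 0.09 (adjusted p = 0.0138). None of the 58 was called between non-dependent and naive mice. In input, among 59 tested, the called ones were Abca2 (0.21 ± 0.06, adjusted p = 0.0345) and Ppard (1.10 ± 0.29, adjusted p = 0.0270) between dependent and naive mice, where 2.38% of all genes were called. Ppard averaged 3.95 ± 6.71 CPM in dependent and 2.18 ± 0.61 CPM in naive input libraries. Most of that difference in CPM came from 1 dependent library at 29 CPM, against at most 3.62 CPM in the naive ones. Of the 12 tested genes on the list of liver X receptors, their partners and targets, none was called in IP in any treatment comparison. The list's median log2 fold change between dependent and naive mice was 0.20, beside 0.002 over all genes tested. Over the 8 members that median was -0.16 for dependent against naive mice, 0.04 for dependent against non-dependent mice and -0.28 for non-dependent against naive mice.

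The members did not vary as 1 group across the 44 fitted IP libraries. After batch means were removed, the highest Pearson correlation between members was 0.38 (Clu with Lcat) and the lowest -0.40 (Abca1 with Clu). These are descriptions over libraries that share the treatments. The transcripts most like each member by the same measure, out of 12962 genes, were named for each. Lcat went most with Mpv17l2 (r = 0.795) and Pmm1 (0.758), Clu with Pla2g7 (0.780) and Aldoa (0.764), and Apoe with Lmo1 (0.639). Lpl went most with Arpp19 (0.731), Rasd2 (0.704) and Ppp3ca (0.700), and Abcg1 with the neuronal chloride transporter Slc12a5 (0.728), Pknox1 (0.698) and Gad1 (0.691), which makes GABA. Apod went most with Slc50a1 (0.644), Ptgds (0.643) and the myelin gene Mal (0.575), Abca1 with the antisense transcript Six3os1 (0.723) and its partner Six3 (0.657), whose reads cannot be told apart if the counting ignored strand, and Lrp1 with Zfp777 (0.728). Some of these genes share the chromosome of their member: Mpv17l2 with Lcat and Rasd2 with Lpl (chromosome 8), Pknox1 with Abcg1 (17) and Lmo1 with Apoe (7). The other genes named here lie on other chromosomes than their member. The part of a shared chromosome in these correlations was not tested. All libraries share the purification, so these values also carry what varies with it.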

How the data were processed

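The authors deposited raw gene counts, 1 column for each of 95 libraries of 49 mice. The submitters' processing notes list STAR 2.7.10b, Trimmomatic 0.39 and FastQC 0.11.9, with the build GRCm38; the counting program, annotation and strand setting are not given in the sources used here. Of the 55471 features 55144 matched GENCODE M21, which gave coordinates and exon lengths. CPM is a count divided by its library's total and multiplied by 1e6.

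Treatment comparisons used edgeR 4.0.16 (R 4.3.3) on the counts: filterByExpr (minimum count 10, minimum total 15), TMM, treatment by sex plus batch, and the quasi-likelihood F test, with Benjamini-Hochberg adjustment over all genes tested and a threshold of 0.05. IP against input, and the treatment shift of IP over input, were fitted with each mouse as a block, since the labels give both libraries of a mouse the same identifier. The deviations of the pair from their treatment, fraction and sex means correlated above 0.1 in 45 of 46 mice (median 0.645). Batch was left in these deviations, so the correlation cannot separate a shared mouse from a shared batch, and the pairing rests on the labels. These paired fits estimated their dispersion from the 5% most abundant genes. DESeq2 1.42.0, limma voom 3.58.1 and other settings were alternatives. The fits were also run on simulated data with known changes. Those data held no batch or sex effects, so they cannot show how the calls depend on batch. Intervals are 95%.

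All 8 members are described in every comparison. From each pathway list the 2 genes with the smallest p, and any called gene, could be named. The 3 genes most like a member were ranked by Pearson r of log2(CPM + 0.5) over the fitted IP libraries with batch means removed, among established genes with a mean of at least 1 CPM. Members and lists were chosen with earlier results of these data known. Some genes of the pathway lists are counted but not reported by name here.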

Additional observations from a re-analysis of the deposited data

How the results depend on the processing

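The treatment calls changed with the batches fitted, the count filter and the tool. Depth was lowest for Lcat in input, where a library held as few as 57 counts. IP against input called all 8 members in the same direction in every alternative tried, including the one without the replicate block. Leaving out mouse K15, or mice I02, I05, I11 and J05, and adding the medium spiny neuron list to the marker covariates, were chosen after seeing the data. Fits without a batch or with batches J and K alone hold fewer libraries. Treatment fits without the batch term also hold the libraries of batches C and G, so they change the libraries and the model together. For other settings the cause of a change was not tested. No fit reversed a called difference of a member.

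Genes called in IP between dependent and naive mice (933) numbered 235 in batches J and K alone, 1447 without a count filter, and 294, 355 and 439 without batch J, K and L. Members called there (1) numbered 2 with limma voom or no filter and 0 without batch J or L; without batch I and in batches J and K alone the member was Abcg1, and without batch K it was Apoe. Between dependent and non-dependent mice (308) they numbered 492 with DESeq2, 0 in J and K alone, 92 without the batch term, 684 without a filter, 3 without batch I, 137 without the 4 mice and 176 with the medium spiny neuron covariate. Members called (2) numbered 0 in J and K alone or without batch I, and 1 without batch J, without batch K, without the batch term, without the 4 mice or with the medium spiny neuron covariate. Between non-dependent and naive mice (88) they numbered 246 with DESeq2, 15 in J and K alone, 155 without the batch term, 481 without a filter, and 25, 25 and 36 without batch J, K and L. Members called (0) numbered 2 with DESeq2 or without the batch term, 1 with marker covariates (with or without the medium spiny neuron list), limma voom, batch I left out or the 4 mice left out, and 4 without a filter.

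In input, dependent against naive mice (469) gave 707 with DESeq2, 17 in J and K alone, and 133, 281 and 95 without batch J, K and L. Dependent against non-dependent mice (70) gave 111 with DESeq2, 0 in J and K alone or without batch I, 28 without the batch term, 119 without a filter, 41 without batch J and 9 without the 4 mice. Non-dependent against naive mice (24) gave 60 with DESeq2, 8 in J and K alone, 51 without the batch term, 77 without a filter, 10 without batch I and 15 without batch L. For the shift of IP over input, the fit with no replicate block called 12 genes between dependent and naive mice (77 with it) and 0 between dependent and non-dependent mice (20 with it), where leaving out K15 gave 31. Batches J and K alone gave 6, 0 and 1 for dependent against naive, dependent against non-dependent and non-dependent against naive mice, and leaving out K15 gave 1 for the last of these.

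Signs turned only for differences that were not called. In IP between dependent and naive mice, Lrp1 (0.017) was -0.012 in J and K alone, -0.085 without the batch term, -0.01 without batch I and -0.002 without batch K, and Apod (0.073) was -0.066 without the batch term and -0.005 without batch J. With the medium spiny neuron covariate Clu (0.067) was -0.016 and Abca1 (-0.177) was 0.025. Between dependent and non-dependent mice, Lrp1 (0.009) was -0.051 in J and K alone, -0.047 without batch I and -0.014 without the 4 mice, and Clu (0.01) was -0.033 without the batch term, -0.092 without batch J and -0.012 without the 4 mice. There Lcat (0.064) was -0.014 without the batch term and -0.046 without batch J, Abca1 (0.144) was -0.02 without batch I, and Abcg1 (-0.148) was 0.054 without batch J. Between non-dependent and naive mice, Clu (0.057) was -0.04 with marker covariates and -0.039 with the medium spiny neuron list added, and Lrp1 (0.008) was -0.151 without the batch term, -0.028 without batch K and -0.038 without K15. In input between dependent and naive mice, Lrp1 (-0.024) was 0.006 with marker covariates and 0.003 without batch L, and Lpl (0.028) was -0.022 without the batch term. There Apod (0.032) was -0.047 without the batch term, -0.005 without batch J, -0.009 without batch K and -0.013 without the 4 mice. Between dependent and non-dependent mice, Clu (0.039) was -0.072 in J and K alone, -0.006 without batch I and -0.017 without the 4 mice, Lcat (0.114) was -0.001 in J and K alone, and Lrp1 (0.046) was -0.005 without batch K. Between non-dependent and naive mice, Abca1 (-0.007) was 0.157 with marker covariates, 0.003 with limma voom and 0.158 without batch J. For the shift between dependent and naive mice, batches J and K alone turned Clu (-0.105) to 0.03, Lcat (-0.252) to 0.163 and Lrp1 (0.028) to -0.017, and Apod (-0.001) was 0.016 with no replicate block and 0.003 without K15. Between dependent and non-dependent mice, J and K alone turned Clu (-0.019) to 0.135, Abca1 (0.055) to -0.054 and Lcat (-0.103) to 0.253, and Apoe (0.016) was -0.04 without K15. Between non-dependent and naive mice, J and K alone turned Abcg1 (-0.049) to 0.006.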
